A study of Mus musculus with 3 samples.

Results

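Cluster 20, labelled pericytes, is a group of 1195 cells among the 26008 cells that were kept in a single-cell RNA-sequencing study of the mouse iridocorneal angle and limbus, the ring of tissue at the front of the eye through which aqueous humor drains. Its members are the kept cells that carry the number 20 in the deposited cluster labels, matched by cell barcode to the count matrices of the 3 libraries. Control replicate 1 gave 461 of them, control replicate 2 gave 512 and *Angpt1*ΔNC gave 222. Control mice were *Angpt1* flox/flox and *Angpt1*ΔNC mice were *Angpt1* flox/flox;Wnt1Cre+, so the controls carried the floxed allele as well but no Cre. The Cre is driven by *Wnt1* regulatory sequence and deletes *Angpt1*, a ligand of the endothelial receptor TEK, in cells of neural crest descent, and the mice were bred from a mixed strain over 2 generations with ICR animals to give albino litters. All mice were 6 weeks old, and each library pooled eyes of 2 to 3 animals, with males and females combined according to the labels. The library is therefore the replicate, with 2 in the control group and 1 in *Angpt1*ΔNC.

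Pericytes are mural cells that sit within the basement membrane of capillaries and small venules and wrap the endothelium with long processes. Endothelial PDGF-B recruits them through PDGFRB, Notch ligands on the endothelium act on NOTCH3 in the mural cell, and pericytes send back ANGPT1, vitronectin and matrix proteins. They pass electrical and constrictor signals along the vessel, take part in barrier function, and can release chemokines that bring leukocytes to the vessel wall. In the head, pericytes descend largely from the neural crest, the lineage in which *Wnt1*-Cre is active.

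Cluster 20 held 2047432, 2316709 and 956505 unique molecular identifiers (UMIs, counts of original transcripts) in control replicate 1, control replicate 2 and *Angpt1*ΔNC. A cell had a median of 4297, 4372 and 3945.5 UMIs, and 3.65%, 4.75% and 5.45% of them were mitochondrial, the highest value in *Angpt1*ΔNC. Libraries shared 21 to 36 barcodes among called cells, and no barcode was in cluster 20 of more than 1 library. *Xist*, the transcript of the inactive X chromosome, had 0 UMIs in cluster 20 of both controls and 705 in *Angpt1*ΔNC, and 71 of the 222 *Angpt1*ΔNC cells had a Y-linked UMI and no *Xist*, against 322 of 461 and 374 of 512 control cells. In this cluster the control libraries thus carried no sign of female cells, contrary to the label, and sex and genotype cannot be told apart except in the male-typed cells.

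The pericyte label was borne out by its markers. The level of a gene is given as its summed UMIs per 10000 summed UMIs of the group, with 1 value per library. *Rgs5*, a brake on G protein signalling and a classical pericyte marker, stood at 84.9 and 96.3 in the controls and 81.3 in *Angpt1*ΔNC, and 98.7%, 98.2% and 97.7% of the cells had at least 1 *Rgs5* UMI. *Kcnj8*, the pore of the vascular ATP-sensitive potassium channel, stood at 9.12, 11.2 and 6.65 and was found in 78.1%, 85.0% and 72.5% of the cells. *Abcc9*, the regulatory subunit of the same channel, stood at 2.30, 2.28 and 2.86 and was found in 50.8%, 53.1% and 54.1%. All 3 libraries therefore carried all 3 markers, *Rgs5* at a high level in nearly all cells and *Abcc9* at a low level in 50.8% to 54.1% of them. *Kcnj8* (chr6:142564837-142571614, minus strand) and *Abcc9* (chr6:142587862-142702315, minus strand) are neighbours on mouse build GRCm38, with 16247 bases between them, and *Rgs5* lies at chr1:169655501-169695813 on the plus strand.

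In the epithelial clusters 4 and 5, where these genes should be absent, there were *Rgs5* UMIs in 2.43%, 3.56% and 0.878% of cells at deeper medians of 17717, 15168.5 and 15135 UMIs. After each pericyte was thinned to 2000 UMIs, *Rgs5* was found in 96.9%, 97.4% and 97.2%, *Kcnj8* in 65.4%, 70.1% and 58.7%, and *Abcc9* in 31.2%, 32.7% and 37.6% of cluster 20. All 3 markers together were seen in 40.6% (95% exact Clopper-Pearson interval 36.0 to 45.2), 46.9% (42.5 to 51.3) and 45.5% (38.8 to 52.3) of the cells, and at least 2 of them in 87.6%, 89.8% and 79.7%. Such intervals cover counting error only. No marker was seen in 3, 2 and 2 cells. Of all kept cells with the 3 markers, 90.3%, 96.0% and 92.7% lay in cluster 20, and none of the 989, 1012 and 911 epithelial cells had all 3.

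**Figure D1:**
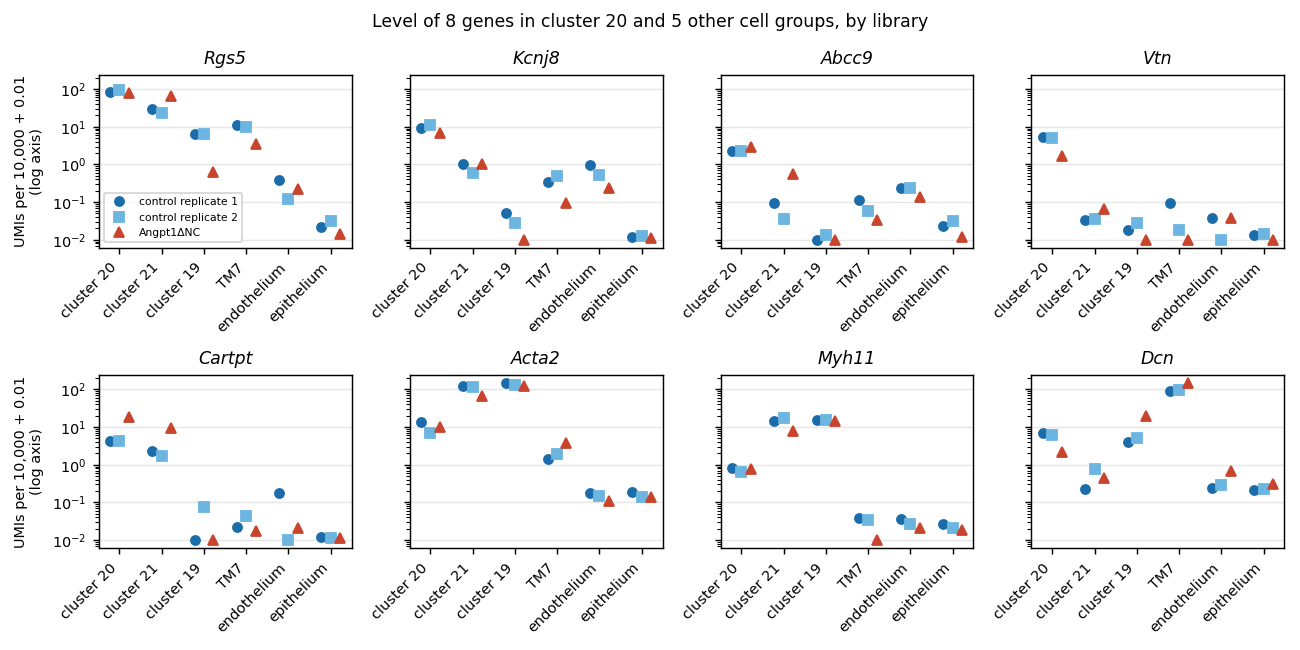
Level of 8 genes in cluster 20 and 5 other cell groups, as UMIs per 10000 plus 0.01 on a log axis, with 1 point per library and no error bar. *Kcnj8*, *Abcc9* and *Vtn* lie highest in cluster 20 in every library, *Rgs5* comes nearest in cluster 21 of *Angpt1*ΔNC (65.6 against 81.3), and *Acta2* and *Myh11* lie lower in cluster 20 than in clusters 19 and 21.

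Cluster 20 was set apart from the other mural clusters by low contractile transcripts. The values that follow describe the clusters and carry no test, since the clusters were built on these same transcripts. *Acta2*, smooth muscle actin, stood at 13.3, 6.98 and 10.1 in cluster 20, against 120, 119 and 66.1 in cluster 21 (vascular smooth muscle) and 151, 132 and 121 in cluster 19 (smooth muscle). *Myh11*, the smooth muscle myosin heavy chain, stood at 0.835, 0.63 and 0.774, against 14.8, 17.7 and 8.02 in cluster 21. *Rgs5* was shared with cluster 21, at 28.9, 23.2 and 65.6, and only sparsely with cluster 19, at 6.44, 6.37 and 0.625. *Vtn*, which encodes the matrix protein vitronectin, stood at 5.31, 4.96 and 1.62 in cluster 20 and at most at 0.087 in the 5 other groups examined. Ranked by the lowest of the 3 libraries' folds over all other kept cells, the genes that led cluster 20 were *Rgs5*, *Kcnj8*, *Il6*, *Cartpt*, *Ccl11*, *Rgs4*, *Ndufa4l2*, *Abcc9*, *Vtn* and *Gm13889*, so a cytokine, a chemokine and a neuropeptide precursor stood among the channel and G protein genes.

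Markers of other cell types were low. The summed level of 6 endothelial markers was 5.91, 6.72 and 3.50 in cluster 20, against 80.6, 85.2 and 81.1 in the endothelial labels, and nearly all of it was *Emcn* (5.83, 6.59 and 3.44). The defining endothelial genes *Cdh5* (0, 2 and 0 UMIs) and *Pecam1* (3, 8 and 1 UMIs) were close to 0. The summed level of 6 fibroblast and stroma markers was 11.3, 10.1 and 3.31, against 117, 127 and 186 in the stromal cells labelled TM7, while *Pdgfra*, which encodes the fibroblast PDGF receptor, had 4, 19 and 4 UMIs. Fibroblast markers were thus lower in *Angpt1*ΔNC pericytes although they were higher in *Angpt1*ΔNC stroma. The summed level of 5 immune markers was 0.435, 0.535 and 0.125, and that of 5 epithelial markers 0.78, 0.67 and 0.77.

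Cluster 20 made up 5.08% (4.64 to 5.55) and 5.04% (4.62 to 5.48) of kept cells in the controls and 3.28% (2.87 to 3.73) in *Angpt1*ΔNC. The *Angpt1*ΔNC share was 64.8% of the control mean, while the controls had a ratio of 1.01. Counting instead every kept cell with the 3 markers, whatever its label, gave 2.28%, 2.46% and 1.61%, or 67.9% of the control mean. Among vascular and mural labels alone (endothelium and clusters 19 to 21) the direction turned, with 34.6%, 33.9% and 40.1%, or 117% of the control mean. Cluster 19, which is part of that denominator, held 387, 499 and 54 cells, of 9076, 10160 and 6772 kept cells. The part of cluster 19 in the turn was not tested. With 2 pools against 1, an exact permutation test cannot go below a p of 1 in 3, so no test was made. Fewer pericytes in the tissue cannot be told apart from fewer released in dissociation or from a difference in dissection. The paper holds it likely that slight differences in the cuts through cornea and sclera shift the mix of corneal and uveal cells.

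The pericytes varied among themselves in a contractile and in an inflammatory direction. *Acta2* UMIs were concentrated in few cells, and the top 10% of cells held 69.0%, 78.2% and 64.9% of them. Across cells of 1 library, *Acta2* went with *Tagln*, another contractile gene (Pearson r of 0.76, 0.72 and 0.80 over 461, 512 and 222 cells), and against *Spp1*, which encodes osteopontin (r of -0.31, -0.31 and -0.44). The chemokine genes *Ccl2* and *Ccl7* went together (0.64, 0.57 and 0.52), as did *Ccl2* and *Cxcl1* (0.57, 0.53 and 0.46). *Vtn* went with the matrix genes *Dcn* (0.42, 0.47 and 0.22) and *Col14a1* (0.43, 0.45 and 0.23) and with *Ccl11* (0.40, 0.44 and 0.21), and weakly against *Cartpt* (-0.19, -0.25 and -0.12). *Rgs5* went with *Ndufa4l2*, a mitochondrial gene typical of pericytes (0.49, 0.41 and 0.35). Cells of a library share its free RNA and differ in depth, so these r values are descriptions without a p. The signs of these r values were the same in the 3 libraries, and each r with *Vtn* given so far was smallest in size in *Angpt1*ΔNC. Other pairs were mixed. *Vtn* with *Ccl2* and with *Ednrb* kept both traits. The sign changed for *Vtn* with *Kcnj8* (0.05, -0.06 and 0.07) and with *Acta2* (0.10, 0.09 and -0.03). With *Lamc3* (0.12, 0.18 and 0.14) the r was not smallest in *Angpt1*ΔNC.

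**Figure D2:**
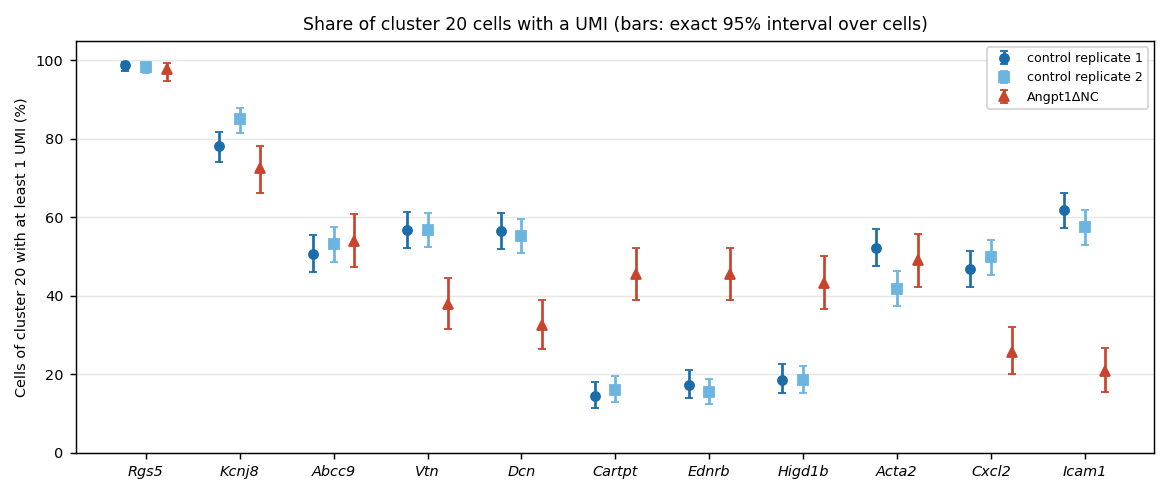
Share of cluster 20 cells with at least 1 UMI of 11 genes, in percent, by library, with exact 95% intervals over cells that do not cover the spread between animals. *Rgs5* and *Abcc9* intervals overlap across libraries, *Vtn*, *Dcn*, *Cxcl2* and *Icam1* lie lower in *Angpt1*ΔNC than in both controls, and *Cartpt*, *Ednrb* and *Higd1b* lie higher.

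The targeted gene, *Angpt1*, was seen in control pericytes and not in *Angpt1*ΔNC pericytes. It had 121 and 92 UMIs in 19.1% and 14.5% of control cells, and 0 UMIs in *Angpt1*ΔNC, where 0 of 222 cells allows a share of up to 1.35%. Against a floor of 3 UMIs in the *Angpt1*ΔNC library the level was at least 12.7-fold lower. The study names exon 1 as the excised exon, which the gene's count does not read on its own. *H2afv*, into which the Cre transgene of this line is inserted, stood at 0.801, 0.799 and 0.324 and fell by 1.26 ± 0.26 on the log2 scale (SE; adjusted p = 0.00107).

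Genotypes were compared on the UMIs of cluster 20 summed per library with the quasi-likelihood test of edgeR, which has 1 residual degree of freedom here and takes the lone *Angpt1*ΔNC library to vary like the controls. The p-values rest on the spread between the 2 control pools, moderated across genes, and hold no spread between *Angpt1*ΔNC pools. Of 8087 genes tested, 878 (10.9%) passed an adjusted p of 0.05, with 396 (4.9%) higher and 482 (5.96%) lower in *Angpt1*ΔNC. Of these, 171 (2.11% of the genes tested) were higher and 343 (4.24%) lower by over 2-fold and outside the control range. Without any test, the level lay above both controls for 37% of genes and below both for 44.9%, and the median log2 change over all genes tested was -0.02. With the same number of cells drawn from each library, 222, no gene passed (lowest adjusted p = 0.293, and 1090 genes at an unadjusted p under 0.05), although all 830 called genes that could be tested kept their direction. DESeq2 called 156 genes, all among the 878. For many of the calls below the number of the 10 alternatives in which they passed is given, equal cell numbers being the alternative in which none did. Among calls printed without it, *Vcam1*, *H2afv* and *Pfkfb3* passed in 5, and *Ebf1*, *Itgb5*, *Gbp3*, *Psmb8*, *H2-D1* and *Pde1a* in 4. *Id3*, *Des*, *Esam*, *Rgs2*, *P2ry14*, *Col4a2*, *Foxc2*, *Mcam*, *Angptl2*, *Irgm1*, *Tap2* and *Hspa8* passed in 3. *Myl6*, *Gapdh* and *H2-T23* passed in 2, and *Heyl*, *Jun* and *Ptgir* in 1. Fewer alternatives could be fitted for some genes. *Ccl8* passed in 4 of 8, *Cxcl14* in 3 of 9, *Ntf3* in 3 of 8, *Htr1b* in 2 of 5, and *Adm* and *Calcrl* in 1 of 8.

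Named by the smallest adjusted p among genes past a 2-fold change and outside the control range, the genes that rose were *Xist*, *Gbp2b*, *Cartpt*, *Crispld2*, *Rpl29*, *Rprml*, *Myof*, *Ednrb*, *Rps18* and *Neat1*. *Cartpt*, a neuropeptide precursor, stood at 4.25, 4.16 and 18.2 and rose 4.46-fold (log2 change 2.16 ± 0.15, adjusted p = 8.36e-12). Its UMIs were also spread over more cells, with at least 1 UMI in 14.5%, 16.0% and 45.5% of them (11.6%, 13.6% and 41.3% after thinning), against at most 0.303% of epithelial cells. *Ednrb*, the endothelin B receptor, stood at 1.54, 1.13 and 4.44 and rose 3.44-fold (1.78 ± 0.16, adjusted p = 1.84e-09). *Crispld2*, a secreted glycoprotein gene, stood at 1.04, 1.05 and 3.70 (1.86 ± 0.16, adjusted p = 4.32e-10), and *Neat1*, a nuclear noncoding RNA, at 2.59, 3.51 and 9.90 (1.73 ± 0.17, adjusted p = 4.29e-09). For these genes the *Angpt1*ΔNC library lay above both controls by more than the controls lay apart. *Cartpt*, *Crispld2* and *Neat1* passed in 9 of 10 alternatives and *Ednrb* in 8. *Neat1* was also higher in *Angpt1*ΔNC epithelium (1.96, 2.37 and 4.88).

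The genes that fell, by the same rule, included *Gm10260*, *Col14a1*, *BC023719*, *Rbp4*, *H2-Q6*, *Cxcl2*, *Col10a1*, *Plac8* and *Gpc3*. *Col14a1*, a fibril-associated collagen gene, stood at 3.35, 2.90 and 0.376 and fell by 3.01 ± 0.23 on the log2 scale (adjusted p = 4.65e-11). *Rbp4*, the retinol carrier, stood at 1.69, 1.41 and 0.0836 (-4.15 ± 0.33, adjusted p = 1.07e-10), and *Col10a1*, a network-forming collagen gene, at 2.73, 2.21 and 0.376 (-2.67 ± 0.23, adjusted p = 8.31e-10). *Gpc3*, which encodes a cell-surface proteoglycan, stood at 2.73, 2.30 and 0.439 (-2.47 ± 0.22, adjusted p = 1.32e-09). Each of these 4 genes lay lower in *Angpt1*ΔNC than in both controls, and each passed in 9 of 10 alternatives.

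Some of these leading genes differed alike in cells that are no pericytes. *Gm10260*, at 1.90, 2.35 and 0.0209 in cluster 20, stood at 11.1, 14.1 and 0.0279 in epithelium. *Rps18* stood at 3.92, 4.32 and 12.6 in cluster 20 and at 21.6, 22.5 and 50.0 in epithelium, and *Rpl29* at 0.728, 0.799 and 2.79 against 2.03, 2.28 and 9.15. *Gbp2b*, an interferon-inducible GTPase gene, stood at 0.0488, 0.0475 and 1.17 in cluster 20 and at 0.146 in *Angpt1*ΔNC epithelium. *BC023719* had 0 UMIs in *Angpt1*ΔNC pericytes, at least 30.3-fold lower, and 0 in *Angpt1*ΔNC epithelium. For these genes the genotype and the strain makeup of the pools, which were of a mixed background, cannot be told apart. Other leading genes changed in the same direction in the mural clusters 19 and 21. On the log2 scale *Rbp4* changed by -3.47 in cluster 19, *Rprml* by 1.59 and 1.05, and *Myof* by 0.19 and 2.85. *H2-Q6* was lower in both clusters. By the edgeR test run within each cluster, *H2-Q6* (adjusted p = 0.383) and *Myof* (0.762) did not pass in cluster 19, nor *Rprml* (0.124) in cluster 21. In contrast to their falls in cluster 20, *Col14a1* changed by only -0.47 in cluster 19, and *Cxcl2* was higher in both (0.72 and 1.45). None of these changes passed that test (adjusted p = 0.738 for *Col14a1*, 0.483 and 0.0772 for *Cxcl2*).

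**Figure D3:**
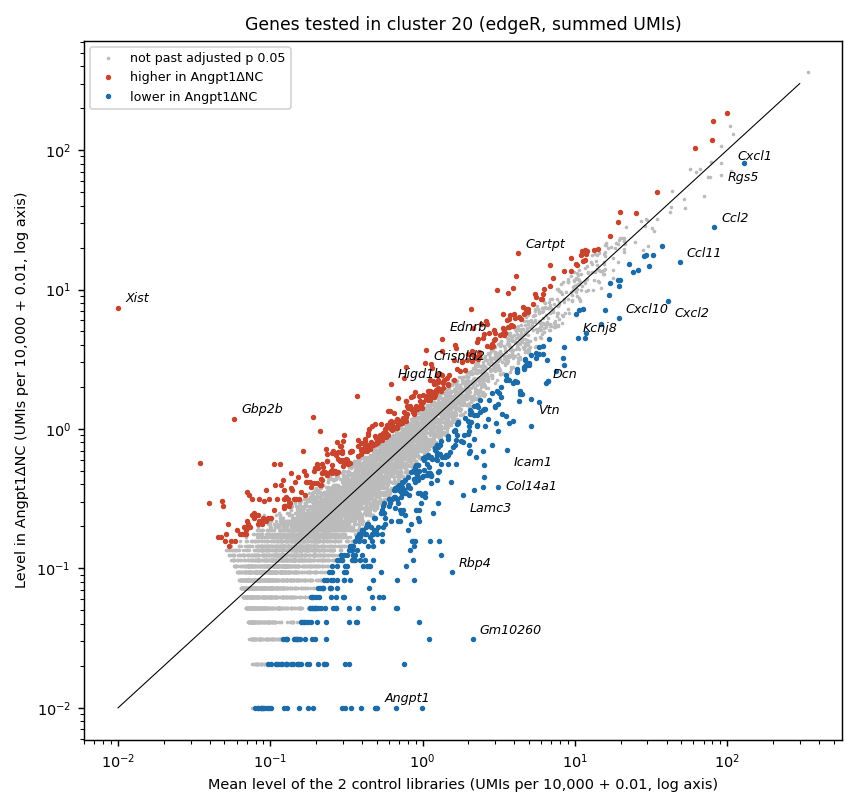
Each of the 8087 genes tested in cluster 20, with the mean level of the 2 control libraries against the level in *Angpt1*ΔNC, as UMIs per 10000 plus 0.01 on log axes, and genes past the test in colour. *Cartpt*, *Ednrb*, *Crispld2* and *Higd1b* lie above the line of equal levels, *Cxcl2*, *Ccl2*, *Ccl11*, *Icam1* and *Col14a1* below it, and *Rgs5* close to it.

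Chemokine transcripts were lower in *Angpt1*ΔNC pericytes. Of 17 chemokine and cytokine genes tested among 18, 10 fell, 1 rose and 6 did not pass, and the list's median log2 change was -1.19. Over all 8087 genes tested, 5.96% fell and 4.9% rose, with a median of -0.02. The promoters of *Cxcl2* and *Cxcl10*, which fell, are shown beside that of *Cxcl1*, which did not pass. *Cxcl1* and *Cxcl2*, with 10755 bases between them, and *Cxcl10* lie on chromosome 5 and encode CXC chemokines. The sequences are the 250 bases before the RefSeq start on GRCm38.p6, 5′ to 3′ on the gene's own strand (chr5:90890995-90891244 for *Cxcl1*, chr5:90903649-90903898 for *Cxcl2* and chr5:92348890-92349139, minus strand, for *Cxcl10*). Capitals mark matches, on either strand and with overlapping ones merged, to the 10-letter kappa-B motif, the sequence bound by NF-kappa-B.
Cxcl1: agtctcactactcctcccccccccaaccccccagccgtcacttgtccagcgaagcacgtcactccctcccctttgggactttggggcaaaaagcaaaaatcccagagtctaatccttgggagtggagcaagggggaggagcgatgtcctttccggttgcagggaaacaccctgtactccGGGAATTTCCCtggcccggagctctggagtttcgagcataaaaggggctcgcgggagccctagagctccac
Cxcl2: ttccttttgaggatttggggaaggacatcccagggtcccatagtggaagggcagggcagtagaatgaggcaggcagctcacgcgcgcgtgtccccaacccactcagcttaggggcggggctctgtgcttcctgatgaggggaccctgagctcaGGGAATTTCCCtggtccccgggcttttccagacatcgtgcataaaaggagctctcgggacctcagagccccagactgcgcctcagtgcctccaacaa
Cxcl10: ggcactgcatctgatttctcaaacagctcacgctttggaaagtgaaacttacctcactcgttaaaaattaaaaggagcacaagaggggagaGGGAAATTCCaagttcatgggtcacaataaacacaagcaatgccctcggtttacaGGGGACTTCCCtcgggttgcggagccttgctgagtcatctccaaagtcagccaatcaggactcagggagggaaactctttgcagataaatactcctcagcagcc
The match began 71 bases before the start in *Cxcl1*, 97 in *Cxcl2*, and 159 and 104 in *Cxcl10*. Among the 12 genes of the list with a promoter in the RefSeq table, 5 held a match (*Csf1*, *Cxcl1*, *Cxcl10*, *Cxcl2* and *Il6*), against 7.25% of 32851 promoters. A match is letters in this window and does not show binding, and *Cxcl1*, *Il6* and *Csf1*, which hold one, did not pass the genotype test.

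*Cxcl2*, which attracts neutrophils, stood at 43.7, 37.6 and 8.26 and fell 4.78-fold (log2 change -2.26 ± 0.20, adjusted p = 8.22e-10). *Cxcl10*, an interferon-responsive attractant of T cells, stood at 21.3, 17.5 and 6.23 (-1.60 ± 0.18, adjusted p = 1.36e-07). *Ccl11*, which encodes eotaxin, stood at 43.6, 54.0 and 15.6 (-1.61 ± 0.20, adjusted p = 5.1e-07). In all of these the controls differed by less than either differed from *Angpt1*ΔNC. *Ccl2*, the main monocyte attractant, stood at 101, 63.4 and 27.9, with the controls far apart, and fell by 1.51 ± 0.22 (adjusted p = 9.53e-06). *Ccl7*, another monocyte attractant, stood at 11.4, 9.54 and 4.49 (-1.18 ± 0.18, adjusted p = 1.08e-05), and *Cxcl12*, the ligand of CXCR4, at 4.33, 4.37 and 1.85 (-1.19 ± 0.17, adjusted p = 9.08e-06). *Cxcl16*, *Cxcl14*, *Ccl8* and *Il33* fell as well. *Il33* and *Ccl8* had 0 UMIs in *Angpt1*ΔNC, at least 8.40-fold and 6.70-fold lower. *Cxcl2* and *Cxcl12* passed in 9 of 10 alternatives, *Cxcl10* and *Ccl11* in 7, and *Ccl2* and *Ccl7* in 6.

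*Cxcl1*, a neutrophil attractant, stood at 109, 102 and 70.6 and did not pass (-0.54 ± 0.19, adjusted p = 0.0675). *Il6* stood at 24.9, 31.5 and 19.3 and did not pass either (-0.51 ± 0.18, adjusted p = 0.0716). The gene of the list that rose was *Ackr3*, a scavenging receptor for CXCL12, at 0.200, 0.207 and 0.387 (0.96 ± 0.31, adjusted p = 0.0434, in 1 of 10 alternatives). *Icam1*, a leukocyte adhesion molecule, stood at 3.95, 3.17 and 0.700 and fell 4.92-fold (-2.30 ± 0.21, adjusted p = 1.32e-09), and *Vcam1* stood at 1.49, 1.03 and 0.481 (-1.34 ± 0.25, adjusted p = 0.000274). Pericytes with an *Icam1* UMI made up 61.8%, 57.4% and 20.7%, whereas *Icam1* in epithelium stood at 0.685, 0.695 and 0.653. *Cxcl2* UMIs were found in 46.9%, 49.8% and 25.7% of pericytes and in 15.5%, 18.0% and 21.2% of the deeper epithelial cells. The level of *Cxcl2* in epithelium was 0.321, 0.644 and 0.418.

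Chemokine levels moved with *Vtn* and with stromal transcripts. *Vtn* itself fell 3.08-fold (-1.62 ± 0.18, adjusted p = 8.18e-08), and 56.8%, 56.8% and 37.8% of pericytes had a *Vtn* UMI (44.9%, 42.5% and 21.6% after thinning). *Dcn*, a fibroblast proteoglycan gene, stood at 6.81, 6.03 and 2.12 and fell by 1.56 ± 0.18 (adjusted p = 1.33e-07), and *Lum* and *Col1a1* fell too, so 3 of the 4 fibroblast markers tested fell and none rose. A *Dcn* UMI was found in 56.6%, 55.3% and 32.4% of pericytes and in 22.8%, 29.5% and 38.5% of epithelial cells, which should lack it. In the fit on cells with no *Dcn*, *Lum* or *Col1a1* UMI (127, 146 and 122 cells), several calls were lost. The log2 change there was -0.58 for *Vtn* (adjusted p = 0.259), -0.41 for *Cxcl10* (adjusted p = 0.344), -0.42 for *Ccl11* (adjusted p = 0.315) and -0.32 for *Ccl7* (adjusted p = 0.528). *Cxcl2* (-2.52, adjusted p = 9.87e-11), *Icam1* (-2.19, adjusted p = 1.99e-06), *Cxcl12* (-1.71, adjusted p = 1.34e-05) and *Ccl2* (-0.75, adjusted p = 0.0223) still passed in those cells.

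Divided by *Vtn*, which was done after the data were seen and on a gene that differs between genotypes, the pericytes kept part of the differences in each stratum. In cells with a *Vtn* UMI (262, 291 and 84), *Cxcl2* stood at 52.9, 48.5 and 9.53, and in cells without (199, 221 and 138) at 29.1, 20.6 and 7.32. *Cxcl10* stood at 27.6, 20.7 and 10.4 with and 11.4, 12.4 and 3.13 without a *Vtn* UMI. *Icam1* stood at 4.23, 3.19 and 0.614 with and 3.50, 3.14 and 0.765 without. These 3 genes were lower in *Angpt1*ΔNC in both strata, but *Cxcl10* did not pass in cells with no stromal UMI, as given above, nor at 4 to 6% mitochondrial UMIs (-0.70, adjusted p = 0.277). *Ccl7* was lower only where *Vtn* was seen, at 16.3, 12.2 and 4.32, and stood at 3.84, 5.31 and 4.61 without, and its log2 change in the fit on cells with no *Vtn* UMI was 0.052. *Ccl11* stood at 58.9, 70.7 and 18.7 with and at 19.5, 27.9 and 13.4 without. *Cartpt* stood at 2.53, 1.38 and 14.1 with and 6.97, 8.50 and 21.3 without, higher in *Angpt1*ΔNC in both.

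**Figure D4:**
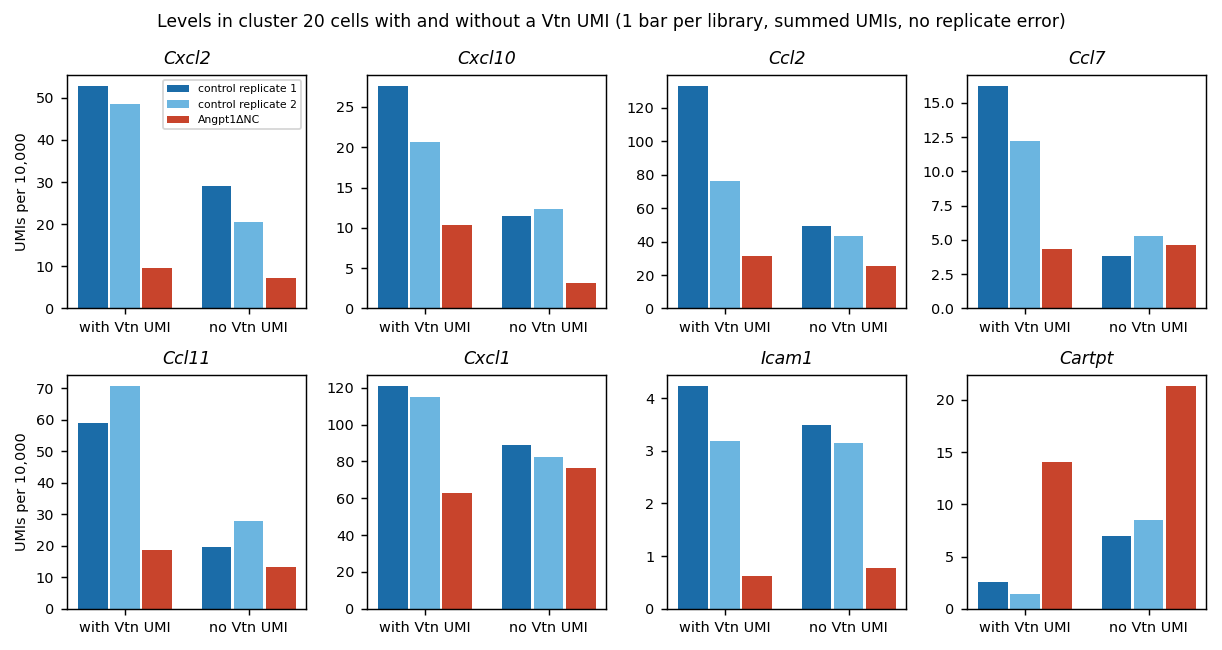
Level of 8 genes in cluster 20 cells with and without a *Vtn* UMI, in UMIs per 10000, with 1 bar per library from 0 and no replicate error. The *Angpt1*ΔNC bars for *Cxcl2*, *Cxcl10* and *Icam1* are the lowest in both strata, that for *Ccl7* only with a *Vtn* UMI, and that for *Cartpt* is the highest in both.

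Genes of pericyte identity moved in both directions. Of 22 tested among 24, 4 rose, 3 fell and 15 did not pass, with a median log2 change of 0.05. The shares over all genes tested, 4.9% higher and 5.96% lower, are the background for this count and for the list counts that follow. *Higd1b*, a hypoxia-inducible mitochondrial gene typical of pericytes, stood at 0.596, 0.617 and 2.1 and rose 3.55-fold (1.83 ± 0.18, adjusted p = 5.39e-09, passing in 9 of 10 alternatives). Its log2 change in cluster 21 was 1.53, where summed pericyte markers stood at 39.7, 33.9 and 80.5. The part of that makeup in the change of *Higd1b* there was not tested. *Ebf1*, a transcription factor of mural cells, stood at 6.40, 7.35 and 10.6 (0.66 ± 0.16, adjusted p = 0.00542), and *Mcam* and *Heyl* rose as well. *Kcnj8*, at the levels given above, fell by 0.57 ± 0.17 (adjusted p = 0.0286) and passed in 4 of 10 alternatives, while its partner *Abcc9* did not pass (0.36 ± 0.16, adjusted p = 0.15). *P2ry14*, a receptor for UDP-sugars, stood at 0.962, 1.48 and 0.596 (-1.0 ± 0.25, adjusted p = 0.00737). *Rgs5* (-0.12 ± 0.19, adjusted p = 0.762), *Pdgfrb*, the receptor of PDGF-B (4.90, 5.26 and 5.91, log2 change 0.26 ± 0.16, adjusted p = 0.338), and *Notch3* (2.90, 3.03 and 2.13, -0.44 ± 0.17, adjusted p = 0.0926) did not pass.

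Of 17 contractile genes tested among 20, 3 rose, none fell and 14 did not pass, with a median of 0.28. The risers were *Tpm2*, a tropomyosin, at 7.35, 6.96 and 12.2 (0.81 ± 0.15, adjusted p = 0.000444), *Des*, desmin, at 3.32, 3.26 and 4.79 (0.58 ± 0.15, adjusted p = 0.0113), and *Myl6*, a myosin light chain, at 14.1, 14.2 and 19.5 (0.51 ± 0.16, adjusted p = 0.0378). *Acta2* (0.04 ± 0.21, adjusted p = 0.927), *Tagln* (0.10 ± 0.19, adjusted p = 0.812) and *Myh11* (0.13 ± 0.22, adjusted p = 0.791) lay between the controls. In cells with no *Dcn*, *Lum* or *Col1a1* UMI, *Acta2* (0.97, adjusted p = 0.00371) and *Tagln* (1.01, adjusted p = 0.00103) were higher in *Angpt1*ΔNC and passed, as they did at 4 to 6% mitochondrial UMIs (0.96, adjusted p = 0.0155, and 1.20, adjusted p = 0.0013). In male-typed cells their changes were -0.44 and -0.35 and did not pass. Among potassium, calcium and chloride channels, 10 of 16 were tested, 1 fell (*Kcnj8*) and none rose, with a median of -0.03.

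Receptors that set vessel tone differed by gene. Of 17 constrictor receptors and G protein brakes tested among 22, 3 rose and 2 fell, with a median of 0.08. Beside *Ednrb*, *Rgs2* stood at 1.87, 2.32 and 3.46 (0.76 ± 0.17, adjusted p = 0.00199) and *Htr1b*, a serotonin receptor, rose from low counts. *Rgs16* stood at 7.66, 5.65 and 2.20 and fell by 1.56 ± 0.19 (adjusted p = 4.26e-07, in 9 of 10 alternatives), and *Avpr1a*, the vasopressin V1a receptor, stood at 1.14, 0.928 and 0.335 (-1.58 ± 0.26, adjusted p = 4.4e-05). *Ednra*, the endothelin A receptor, stood at 3.50, 3.90 and 4.05 and did not pass (0.17 ± 0.16, adjusted p = 0.578). In the cGMP and cAMP relaxation list, 14 of 18 were tested, *Pde1a* and *Ptgir*, the prostacyclin receptor, rose and *Calcrl* fell, with a median of -0.14.

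Of 27 growth factor ligands tested among 38, 6 fell, the deleted *Angpt1* among them, and 2 rose, with a median of -0.48. Over all genes tested 5.96% fell and 4.9% rose. *Vegfa*, the main endothelial growth factor, stood at 2.26, 2.27 and 1.04 and fell 2.13-fold (-1.09 ± 0.19, adjusted p = 9.94e-05). *Pgf*, a ligand of VEGFR1, stood at 0.479, 0.449 and 0.0732 (-2.61 ± 0.42, adjusted p = 4.38e-05). *Angpt1*, *Angptl2*, *Ntf3* and *Il11* were the other ligands that fell, *Il11* in 1 of 10 alternatives. *Pdgfa* stood at 3.63, 3.09 and 6.65 and rose 2.04-fold (1.03 ± 0.15, adjusted p = 1.46e-05), and *Igf1* stood at 1.17, 1.20 and 1.67 (0.54 ± 0.18, adjusted p = 0.0437, in 1 of 10 alternatives).

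Of 24 tested among 26 receptors and targets of signals from endothelium, 4 rose and 4 fell, with a median of -0.33. *Hes1*, a Notch target, stood at 3.63, 3.81 and 6.61 (0.87 ± 0.15, adjusted p = 0.000169), *Smad7*, a feedback inhibitor of TGF-beta signalling, at 2.00, 1.97 and 3.42 (0.82 ± 0.16, adjusted p = 0.000391), and *Id3*, a BMP target, at 36.7, 32.7 and 50.2 (0.57 ± 0.17, adjusted p = 0.0276). *Heyl*, another Notch target, also rose. *Notch1*, *Notch2*, *Nrarp*, a feedback inhibitor of Notch, and *Id2* fell, each in at most 2 of 10 alternatives. Notch targets thus moved in both directions.

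Most genes of the basement membrane did not pass, with 1 higher and 3 lower among 22 tested of 24 and a median of -0.05. *Lamc3*, the laminin gamma 3 chain, stood at 1.75, 1.89 and 0.324 and fell 5.47-fold (-2.45 ± 0.24, adjusted p = 5.63e-09, in 9 of 10 alternatives). *Lama2*, the laminin alpha 2 chain, stood at 1.88, 1.67 and 0.805 (-1.10 ± 0.20, adjusted p = 0.000205), and *Col18a1*, the precursor of endostatin, at 0.874, 1.08 and 0.439 (-1.12 ± 0.25, adjusted p = 0.00217). *Lama2* passed in 6 and *Col18a1* in 3 of 10 alternatives, and in cells with no *Dcn*, *Lum* or *Col1a1* UMI the changes were -0.51 for *Lama2* (adjusted p = 0.373) and -0.03 for *Col18a1* (adjusted p = 0.976). *Col4a2*, a collagen IV chain, stood at 3.71, 3.85 and 5.57 and rose (0.60 ± 0.16, adjusted p = 0.00927). In the list of integrins and adhesion to vessels, 2 of 22 tested among 23 rose and 3 fell, with a median of -0.02. Beside *Icam1* and *Vcam1*, *Itgb5* fell, and *Esam*, an endothelial and mural adhesion molecule, stood at 1.46, 1.42 and 2.31 (0.72 ± 0.16, adjusted p = 0.00279) and rose with *Mcam*.

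Immediate early genes, which dissociation can induce, included 5 that fell and none that rose among 20 tested, with a median of -0.29. The share that fell over all genes tested was 5.96%. *Fosb* stood at 4.19, 4.40 and 1.57 (-1.41 ± 0.18, adjusted p = 7.8e-07, in 9 of 10 alternatives) and *Fos* at 3.44, 2.49 and 1.44 (-0.99 ± 0.19, adjusted p = 0.000481), and *Jun*, *Jund* and *Klf2* fell too. Of 14 heat shock genes tested, 2 rose and 1 fell, with a median of 0.03. The small heat shock genes *Hspb1*, at 2.78, 2.05 and 5.64 (1.27 ± 0.16, adjusted p = 9.19e-07), and *Cryab*, at 8.24, 5.40 and 14.9 (1.17 ± 0.18, adjusted p = 1.3e-05), were the risers, and *Hspa8* fell. *Hspb1* had a UMI in 88.4% to 95.3% of epithelial cells and *Cryab* in 47.4% to 54.3%. *Hspb1* passed in 8 and *Cryab* in 4 of 10 alternatives.

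Of 24 interferon-stimulated genes tested, 2 rose (*Gbp3* and *Psmb8*) and 1 fell (*Irgm1*), with a median of 0.16. Of 10 MHC class I genes, *H2-T23* and *Tap2* rose and *H2-D1*, *H2-K1* and *H2-Q7* fell, with a median of 0.01, and reads of these near-identical genes may be shared among paralogs. Of 15 hypoxia and glycolysis genes tested among 18, 2 rose (*Higd1b* and *Gapdh*) and 3 fell (*Vegfa*, *Pfkfb3* and *Adm*), with a median of 0.02. *Foxc2*, a transcription factor of neural crest mesenchyme, rose with *Ebf1* and *Heyl* among 20 neural crest and mural transcription factors tested of 26, none of which fell, with a median of 0.23. *Foxc2* stood at 1.73, 1.78 and 2.58 (0.60 ± 0.16, adjusted p = 0.0136). Of 12 cell cycle genes 1 reached 30 UMIs over the libraries, and it did not pass.

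**Figure D5:**
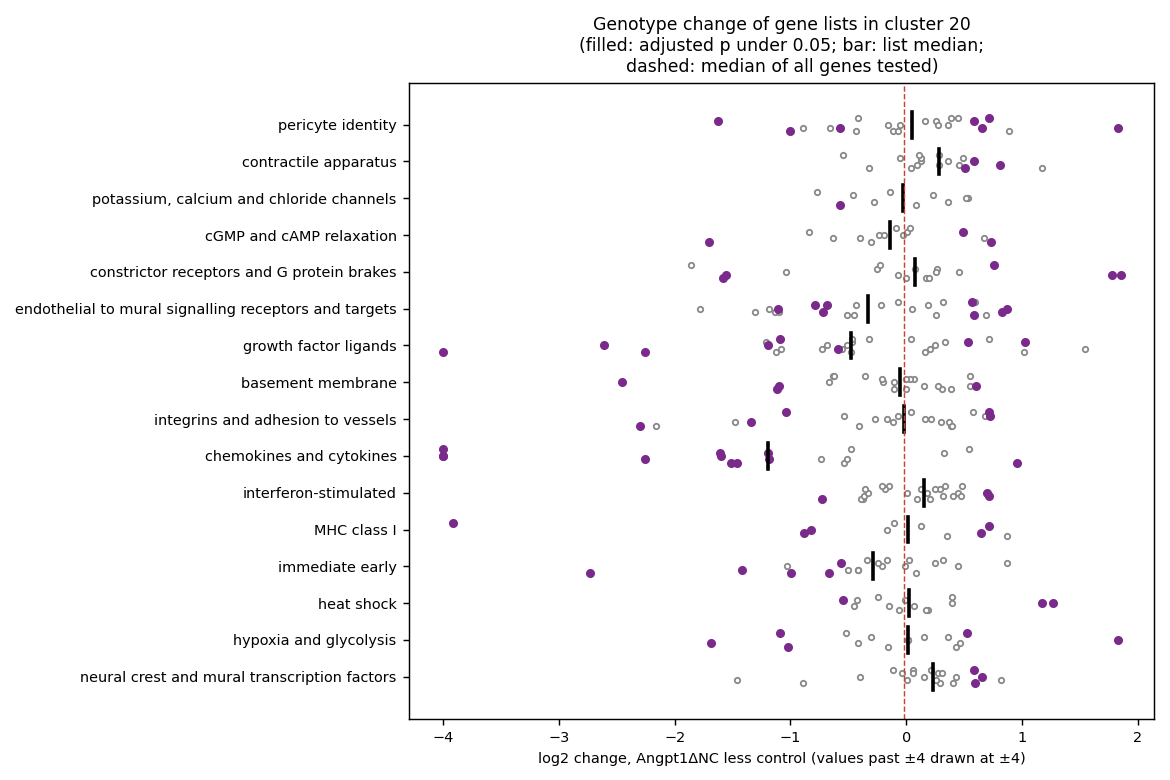
Log2 change (*Angpt1*ΔNC less control) of the tested genes of 16 lists in cluster 20, filled where the adjusted p was under 0.05, with a bar at each list's median and a dashed line at the median of all genes tested, -0.02. Values past 4 are drawn at the edge. The chemokine list has the lowest median, -1.19, followed by growth factor ligands at -0.48.

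Whether pericytes differed from the other mural cells in their genotype difference was tested on 9 sums, of clusters 19, 20 and 21 in 3 libraries, with library as a block. In all, 109 of 8087 genes (1.35%) passed, 48 (0.594%) with a more positive and 61 (0.754%) with a more negative difference in cluster 20. *Cxcl10* stood at 0.498, 0.759 and 1.80 in cluster 21 and at 0.654, 0.654 and 2.58 in cluster 19, with genotype log2 changes of 1.60 and 2.04 there, so its change in cluster 20 was lower by 3.37 ± 0.23 (adjusted p = 6.91e-09). *Cxcl2* had changes of 1.45 in cluster 21 and 0.72 in cluster 19, neither of which passed, from levels of at most 0.771. The difference was -3.30 ± 0.35 (adjusted p = 1.24e-05). *Icam1* had changes of -0.10 and 0.24, and the difference was -2.33 ± 0.29 (adjusted p = 7.72e-05). *Ccl7* (-2.60 ± 0.38, adjusted p = 0.000445) and *Ccl2* (-1.69 ± 0.28, adjusted p = 0.00158) passed as well. Of the 17 chemokine genes tested, 4 thus had a more negative change than the mean of the other clusters and none a more positive one. Chemokines were not alone in this. Of 24 interferon-stimulated genes tested 5 had a more negative change, as did 2 of 4 fibroblast markers, and none of either list a more positive one. For *Ccl2* the changes were -1.51 in cluster 20, -1.54 in cluster 19 and 1.95 in cluster 21, so its drop was as large in cluster 19, and without the library block it did not pass (adjusted p = 0.344). The *Angpt1*ΔNC library held 54 cells of cluster 19 and 69 of cluster 21. Cluster 21 also differed between libraries in its markers, with summed pericyte markers at 39.7, 33.9 and 80.5, summed smooth muscle markers at 245, 261 and 144, and all 3 of *Rgs5*, *Kcnj8* and *Abcc9* in 1.06%, 0.575% and 7.25% of its cells. The part of this makeup in the differences between clusters was not tested.

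In the other direction, *Id3* had genotype changes of -0.28 in cluster 21 and -0.79 in cluster 19, and its change in cluster 20 was higher by 1.16 ± 0.12 (adjusted p = 1.24e-05). *Pdgfa* (1.29 ± 0.18, adjusted p = 0.000298), *Hspb1* (1.15 ± 0.16, adjusted p = 0.000298) and *Crispld2* (1.53 ± 0.27, adjusted p = 0.00265) were also higher by this test, and *Cartpt* (3.70 ± 1.73, adjusted p = 0.406) and *Ednrb* (3.62 ± 1.30, adjusted p = 0.247) were not shown to differ. In cluster 21 the log2 change of *Cartpt* was 2.32 and that of *Ednrb* 1.74. *Higd1b* (1.53), *Col4a2* (1.16) and *Hes1* (0.94) were higher there too, while *Des* (-0.32) and *Tpm2* (-0.18) were not. For *Rgs5*, which did not pass in cluster 20, the difference of 0.86 ± 0.19 (adjusted p = 0.0212) combined changes of 1.42 in cluster 21 and -3.30 in cluster 19.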

How the data were processed

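Droplet libraries of the angle and limbus of the eye were made from 2 control pools and 1 *Angpt1*ΔNC pool. The authors deposited raw UMI counts per cell and gene, whole numbers with no normalization, and a cluster label for each cell they kept after removing doublets. The submitters' processing notes name Cell Ranger 2.1.1, Seurat 3.1.3 and mm10, while the matrix header gives Cell Ranger 3.0.2. Columns with the authors' integrated values were not used.

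Counts of cluster 20 were summed per library, genes with at least 30 UMIs over the 3 libraries were kept, and edgeR 4.0.16 was applied (TMM, quasi-likelihood test, Benjamini-Hochberg adjusted p under 0.05, R 4.3.3). Shares carry exact 95% intervals (scipy 1.17.1). DESeq2 1.42.0, its size factors, other filters, equal cell numbers, removal of cells with 2 or more endothelial or immune UMIs, and male-typed cells were the other settings. Fits on cells with no *Vtn* UMI, with no *Dcn*, *Lum* or *Col1a1* UMI, and with 4 to 6% mitochondrial UMIs were chosen after seeing the data. The edgeR fit was also run on simulated data with the same spread in all 3 libraries. Such data cannot check the spread of the lone *Angpt1*ΔNC pool. The members and gene lists were chosen with earlier results of these data known. Named genes are the 10 with the smallest adjusted p in each direction among those past 2-fold and outside the control range, list members, markers, sex-linked genes and the targeted gene. Of the genes that fell, 1 that the rule names is not reported here. Positions come from GENCODE M21 (GRCm38) and promoters from the RefSeq table.

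Cluster 20 had 1133 to 18741 UMIs per cell, so a gene at 1 UMI per 10000 was missed in many cells. The sums of the control libraries differed beyond sampling noise (chi-square per degree of freedom 3.90 over 8586 genes). Other experiments of the study were not analysed here.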

Additional observations from a re-analysis of the deposited data

Results flagged for a closer look

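The genotype difference in pericytes was set against the mean of those in clusters 19 and 21, by the test of the difference itself. It differed for 19 of the genes whose genotype change is described above. It was more negative in cluster 20, on the log2 scale, for *Cxcl10* (-3.37), *Cxcl2* (-3.30), *Icam1* (-2.33), *Ccl7* (-2.60), *Col14a1* (-3.38), *Ccl2* (-1.69), *Dcn* (-2.58), *Col1a1* (-1.95) and *Irgm1* (-1.13). It was more positive for *Id3* (1.16), *Pdgfa* (1.29), *Hspb1* (1.15), *Cryab* (1.01), *Crispld2* (1.53), *Smad7* (1.01), *Neat1* (0.74), *Rgs5* (0.86), *Tpm2* (0.64) and *Mcam* (1.19). When libraries were not kept apart by a block, *Cxcl10* (adjusted p = 7.12e-05), *Cxcl2* (0.000644), *Icam1* (0.00864), *Id3* (0.00998), *Pdgfa* (0.0283), *Ccl7* (0.0283), *Col14a1* (0.0283) and *Hspb1* (0.0426) still passed in the interaction test of edgeR, and the other 11 did not. *Dcn* had log2 changes of 2.18 in cluster 19 and -0.10 in cluster 21 while it fell in cluster 20, and the part of stromal transcripts from other cells was not tested. The 9 sums hold 1 *Angpt1*ΔNC library, with 54 cells in cluster 19 and 69 in cluster 21.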

How the results depend on the processing

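No paired analysis was possible because the genotypes share fewer than 2 replicate numbers. Calls higher and lower in *Angpt1*ΔNC, 396 and 482, became 48 and 108 with DESeq2, 0 and 0 with equal cell numbers, 85 and 142 without doublet-like cells, 137 and 197 in male-typed cells, 41 and 88 in cells with no *Vtn* UMI, 132 and 202 with no *Dcn*, *Lum* or *Col1a1* UMI, and 101 and 162 at 4 to 6% mitochondrial UMIs. Calls of the difference between mural clusters, 48 more positive and 61 more negative, became 9 and 19 without the library block and 108 more positive without a filter. The share of pericytes was 34.6%, 33.9% and 40.1% of vascular and mural labels and 2.28%, 2.46% and 1.61% by markers. Thinning gave *Rgs5* 96.9% in control replicate 1, *Kcnj8* 65.4%, 70.1% and 58.7%, and *Abcc9* 31.2%, 32.7% and 37.6%. As a mean over cells *Abcc9* stood at 2.33, 2.33 and 2.93. Direction turned in male-typed cells for *Rgs5* (0.014), *Acta2* (-0.44), *Tagln* (-0.35) and *Myh11* (-0.10), with no *Vtn* UMI for *Myh11* (-0.28), *Ccl7* (0.052) and *Csf1* (0.30), with no stromal UMI for *Myh11* (-0.25) and *Igf1* (-0.11), and at 4 to 6% mitochondrial UMIs for *Il11* (0.27). Without control replicate 2 it turned for *Rgs5* (0.005), *Acta2* (-0.33), *Tagln* (-0.20) and *Myh11* (-0.04), which are counted below as moved. The causes were not tested. Leaving out a control leaves no residual degree of freedom, so only fold changes were taken and no counts. Of the values of single genes under alternatives, 841 stayed on their side, 399 no longer passed, 62 moved, 8 newly passed and 10 reversed.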
